A study of Rattus norvegicus with 6 samples.

Results

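Homeostatic microglia markers are genes that the resting macrophages of the brain parenchyma express and that set them apart from other brain cells and, for most of them, from macrophages that enter from the blood. The members were the rows whose symbol was P2ry12, P2ry13, Tmem119, Csf1r, Gpr34, Olfml3, Sall1 or Aif1, which gave 8 genes of 22396 in the count table, each in a single row, and all 8 passed the filter on low counts. RNA of the basal temporal lobe came from 3 SAH + 6-gingerol and 3 SAH + PBS animals, adult male Sprague-Dawley rats with subarachnoid hemorrhage (SAH), a bleed around the brain that was modelled here with autologous femoral artery blood placed into the cisterna magna. The treated rats received 10 mg/kg of 6-gingerol, a phenol of ginger, and the other rats PBS, the saline vehicle, in both cases into the peritoneum 1 h after SAH, and tissue was taken at 24 h. All 6 rats had SAH and no sham library was analysed here, so each value sets treated against untreated injured brain. The rats that died after SAH were not sequenced, and nothing in the labels separates the rats of a group by litter, cage or day.

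Microglia depend on the receptor Csf1r for survival and on the transcription factor Sall1 for their identity, both shown in mice. P2ry12 and P2ry13 are receptors for ADP on the microglial surface, and P2ry12 directs the movement of processes toward injured cells in rodents. In mice, P2ry12, Tmem119 and other members fall when microglia react to injury, whereas Aif1, which encodes the protein Iba-1 stained to show microglia in tissue, is kept or increased in reactive microglia and is also made by other macrophages. The comparison therefore asks how transcripts of resting microglia stood in treated against untreated SAH rats, in bulk tissue where fewer cells of a type and less RNA per cell cannot be told apart.

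Total counts ran from 62762808 to 66761380 in the SAH + 6-gingerol libraries and from 64053899 to 65606360 in the SAH + PBS libraries, a narrow span of depth. SAH + PBS replicate 2 differed from its group. In it 21.8% of the genes tested were over 2-fold away from the average of the remaining untreated rats, and in each of the other 5 libraries this share was 6.31% to 13.03%, set against their own groups. For each marker the log2 fold change is therefore given with and without that rat. Levels are in CPM, counts scaled by library size and TMM factor, unless FPKM is named. Triplets of values give replicates 1, 2 and 3 in that order, and log2 fold changes are SAH + 6-gingerol over SAH + PBS.

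The 8 markers did not share a direction. P2ry12, P2ry13, Gpr34 and Sall1 had higher CPM in every SAH + 6-gingerol rat than in any SAH + PBS rat, Csf1r and Aif1 had lower CPM in every treated rat than in any untreated rat, and Tmem119 and Olfml3 overlapped between the groups. In edgeR 0 of the 8 had an adjusted p under 0.05, against 0.0175% of the 17096 genes tested, and 1, Aif1, had an unadjusted p under 0.05 on the lower side, where 8.71% of all genes did (5.22% on the higher side, with 0 of 8 members). DESeq2 called none of the 8, against 3.7% of the genes to which it gave an adjusted p. The 4 members without overlap on the higher side and the 2 on the lower side stand beside 13.8% and 13.4% of all genes. The median log2 fold change of the 8 was 0.23, with -0.028 over all genes tested, and 0.26 against -0.014 without SAH + PBS replicate 2.

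**Figure D1:**
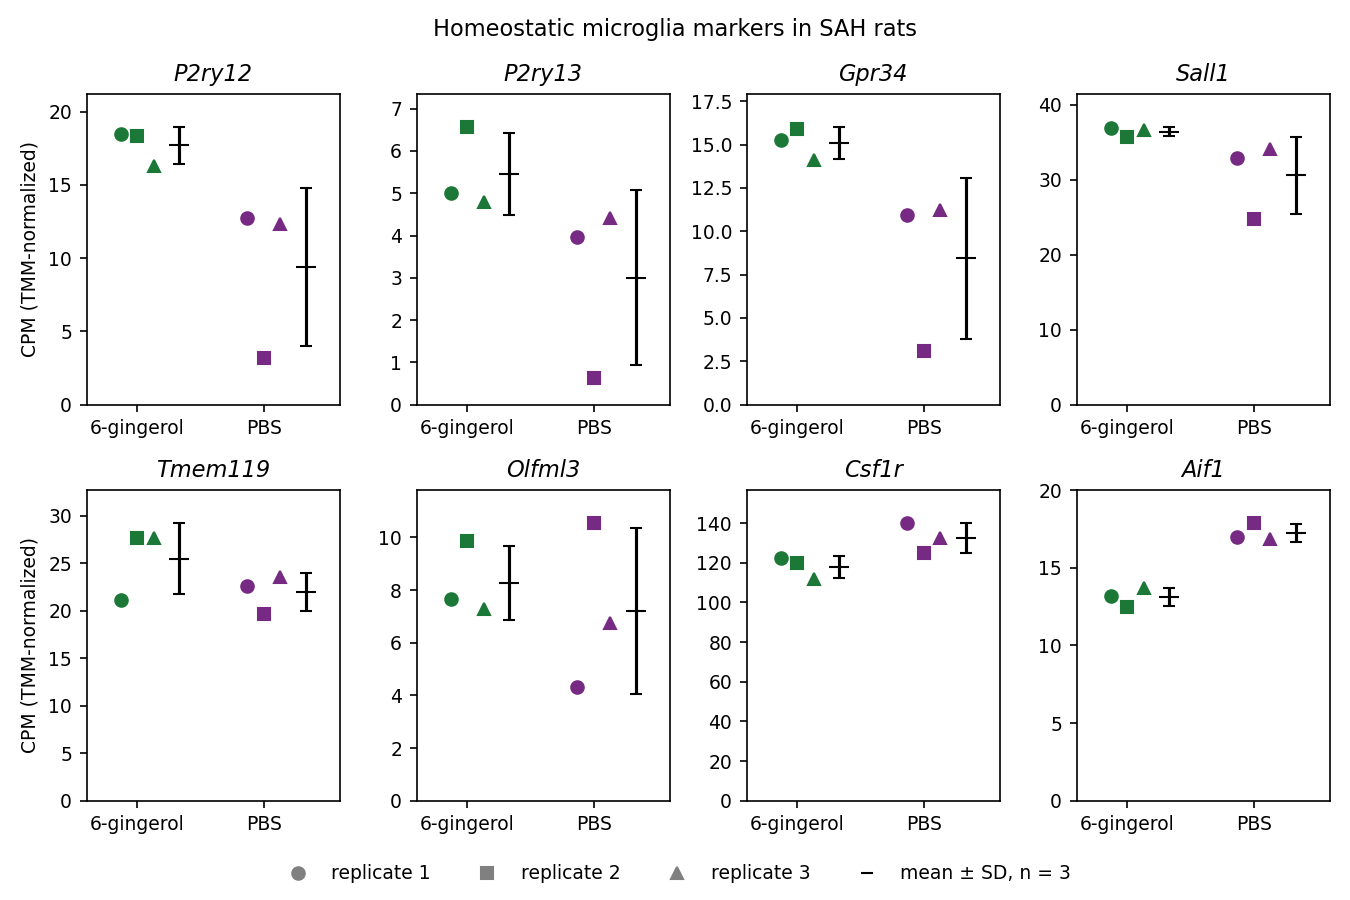
TMM-normalized CPM of the 8 markers in each rat, with SAH + 6-gingerol rats at the left and SAH + PBS rats at the right of each panel, symbols for the replicate number, and bars for the mean and SD (n = 3). For P2ry12, P2ry13 and Gpr34 the square of SAH + PBS replicate 2 lies far under the remaining points, at 3.18, 0.624 and 3.09 CPM, while Aif1 and Csf1r keep the SAH + PBS rats together above the SAH + 6-gingerol rats.

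P2ry12, the ADP receptor that marks resting microglia, had 18.5, 18.4 and 16.3 CPM with 6-gingerol, against 12.7, 3.18 and 12.3 CPM with PBS. The groups did not overlap, and the untreated rats split into a pair just above 12 CPM and replicate 2 far below it. Treated rats averaged 17.7 ± 1.26 CPM and untreated rats 9.41 ± 5.40 CPM (SD, n = 3 each), a log2 fold change of 0.91 (standard error 0.49, 95% interval -0.26 to 2.09, adjusted p = 0.405 in edgeR). By exact permutation (2-sided) p was 0.1, and no smaller value can come from 3 animals a group. Without SAH + PBS replicate 2 the log2 fold change was 0.50 (standard error 0.12, 95% interval 0.21 to 0.79), and the adjusted p was 0.149. The difference was thus smaller and its interval narrower when that rat was left out.

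P2ry13, a second ADP receptor that lies next to P2ry12, had 5.01, 6.57 and 4.80 CPM with 6-gingerol and 3.96, 0.624 and 4.42 CPM with PBS. It was the marker most reduced in SAH + PBS replicate 2, where it had 43 counts, with an exact Poisson 95% interval of 31.1 to 57.9 that covers counting error only, against 269 and 292 counts in the remaining SAH + PBS rats. The log2 fold change was 0.86 (standard error 0.66, 95% interval -0.71 to 2.44, adjusted p = 0.511). It was 0.38 without that rat (standard error 0.21, adjusted p = 0.467). With all rats kept, the lowest treated rat (4.80 CPM) was already only slightly above the highest untreated one (4.42 CPM).

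Gpr34, a lysophosphatidylserine receptor of microglia from the same branch of receptors, had 15.3, 15.9 and 14.1 CPM with 6-gingerol and 11.0, 3.09 and 11.3 CPM with PBS. Its order over the rats was close to that of P2ry12, again with replicate 2 of the untreated group far below all others. The log2 fold change was 0.84 (standard error 0.46, 95% interval -0.27 to 1.95, adjusted p = 0.411). Without SAH + PBS replicate 2 it was 0.44 (standard error 0.12, 95% interval 0.15 to 0.74, adjusted p = 0.18). The exact permutation p was 0.1 for P2ry13 and for Gpr34 with all rats kept.

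In Rnor_6.0, P2ry13 (ENSRNOG00000029756, 149430854 to 149432106) and P2ry12 (ENSRNOG00000013902, 149441598 to 149444548) are on the minus strand of chromosome 2, and both lie within the span of Med12l (149213134 to 149532292), a Mediator subunit gene on the plus strand. As no strand setting is stated, reads of either strand there cannot be told apart. Med12l had 4.56, 4.28 and 4.51 FPKM with 6-gingerol and 3.38, 2.36 and 3.69 FPKM with PBS, with a log2 fold change of 0.61 (adjusted p = 0.347). It was likewise lowest in SAH + PBS replicate 2, and its part in the P2ry12 and P2ry13 values was not tested. Gpr34 (ENSRNOG00000039759, chromosome X, minus strand, 10023489 to 10031167) lies within a plus-strand gene model, LOC100910506, which had 12.4, 5.27 and 10.3 FPKM with 6-gingerol and 12.9, 11.8 and 11.3 FPKM with PBS. That model did not share the low value of SAH + PBS replicate 2.

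The RefSeq table of start-site windows, which run from 250 bases before to 50 after a start site in the build GRCr8, matched 4 of the 8 markers, P2ry13, Csf1r, Gpr34 and Olfml3, and not P2ry12, Tmem119, Sall1 or Aif1. The windows of P2ry13 and Gpr34, which were low together in SAH + PBS replicate 2, and of Csf1r, which was not, are shown so that they can be set side by side. Capitals mark TTCCTC, which is GAGGAA on the opposite strand, the short core bound by ETS factors such as PU.1, the factor that microglia require.
P2ry13, chr2:145622735-145623034, minus strand: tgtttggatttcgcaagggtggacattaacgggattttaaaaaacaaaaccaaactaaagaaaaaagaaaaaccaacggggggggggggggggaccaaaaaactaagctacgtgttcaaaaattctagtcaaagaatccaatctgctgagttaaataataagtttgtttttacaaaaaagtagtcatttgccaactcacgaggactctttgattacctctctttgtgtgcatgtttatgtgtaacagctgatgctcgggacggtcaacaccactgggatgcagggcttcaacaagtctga
Gpr34, chrX:11785787-11786086, minus strand: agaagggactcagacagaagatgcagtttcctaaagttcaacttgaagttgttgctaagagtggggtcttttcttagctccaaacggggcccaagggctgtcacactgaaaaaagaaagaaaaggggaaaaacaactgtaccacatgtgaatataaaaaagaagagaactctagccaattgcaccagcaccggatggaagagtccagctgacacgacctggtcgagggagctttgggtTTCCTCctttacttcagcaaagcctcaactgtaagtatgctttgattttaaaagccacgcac
Csf1r, chr18:56834129-56834428, plus strand: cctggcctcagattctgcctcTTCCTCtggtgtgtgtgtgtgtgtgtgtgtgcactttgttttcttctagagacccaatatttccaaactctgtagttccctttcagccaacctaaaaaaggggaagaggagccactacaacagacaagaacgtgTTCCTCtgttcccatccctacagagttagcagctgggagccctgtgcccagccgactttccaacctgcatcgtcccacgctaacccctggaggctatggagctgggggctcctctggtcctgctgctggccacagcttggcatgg
GAGGAA, searched on both strands, was found 12 bases before the start site in Gpr34 and at 229 and 95 bases before it in Csf1r, and not in the windows of P2ry13 and Olfml3. It occurs in 27.6% of all 33469 windows, so 2 of 4 is a description only. The longer PU.1 core GAGGAAGT, which contains it, was in none of the 4 windows and in 2.42% of all.

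Sall1, a zinc-finger transcription factor of microglia, had 37.0, 35.8 and 36.6 CPM with 6-gingerol and 32.9, 24.7 and 34.1 CPM with PBS. In CPM the groups did not overlap, with replicate 2 once more the lowest of the untreated rats. In FPKM, which carries no TMM factor, they overlapped, at 6.82, 6.63 and 6.71 with 6-gingerol and 6.56, 5.11 and 6.66 with PBS. The log2 fold change was 0.25 (standard error 0.15, 95% interval -0.11 to 0.61, adjusted p = 0.432) and 0.12 without that rat (95% interval -0.085 to 0.33, adjusted p = 0.563). Sall1 (ENSRNOG00000013907) is on chromosome 19 of Rnor_6.0, plus strand, 23389375 to 23405039.

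Tmem119, a membrane protein used as a marker of resident microglia, had 21.2, 27.6 and 27.7 CPM with 6-gingerol and 22.6, 19.7 and 23.5 CPM with PBS. The groups overlapped, and SAH + PBS replicate 2 was the lowest of the 6 rats in CPM by a small margin. In FPKM the lowest was SAH + 6-gingerol replicate 1, at 9.37 against 9.76 in SAH + PBS replicate 2. The log2 fold change was 0.22 (standard error 0.16, 95% interval -0.16 to 0.59, adjusted p = 0.491, exact permutation p = 0.3) and 0.15 without that rat (adjusted p = 0.706). The span of Tmem119 (ENSRNOG00000000700) in Rnor_6.0 is chromosome 12, plus strand, 48598647 to 48605704.

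Olfml3, a secreted glycoprotein enriched in microglia of mice, had 7.68, 9.88 and 7.27 CPM with 6-gingerol and 4.31, 10.6 and 6.76 CPM with PBS. The groups overlapped, and SAH + PBS replicate 2 was the highest of the 6 rats, which among the markers held for Olfml3 and Aif1 only. The log2 fold change of 0.20 (standard error 0.34, 95% interval -0.63 to 1.02, adjusted p = 0.775, exact permutation p = 0.5) was 0.58 without that rat (standard error 0.26, 95% interval -0.042 to 1.20, adjusted p = 0.354), and -0.062 without SAH + PBS replicate 1. Olfml3 (ENSRNOG00000019211, chromosome 2, minus strand, 206219419 to 206222248) is also made by pericytes and fibroblasts. Pdgfrb, Rgs5, Kcnj8, Dcn, Col1a1 and Lum were taken as the 6 pericyte and fibroblast markers. They summed to 200.2 to 237.5 CPM with 6-gingerol and to 144.5 to 335.9 CPM with PBS, highest in replicate 2. Of the 6, Rgs5 alone was low in that rat, at 21.6 CPM and 0.561 times the other untreated rats. The part of these cells in the Olfml3 values was not tested.

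Csf1r, the receptor for CSF1 and IL-34, was on the other side from the purinergic receptors, at 122, 120 and 112 CPM with 6-gingerol and 140, 125 and 133 CPM with PBS. Each treated rat was below each untreated rat, by a small margin. The log2 fold change was -0.17 (standard error 0.096, 95% interval -0.40 to 0.06, adjusted p = 0.42) and -0.21 without SAH + PBS replicate 2 (standard error 0.076, 95% interval -0.39 to -0.026, adjusted p = 0.27). Csf1r (ENSRNOG00000018414) spans 56414488 to 56458300 on the plus strand of chromosome 18 in Rnor_6.0.

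The ligands of Csf1r differed from each other. Csf1 had 21.4, 21.5 and 18.7 CPM with 6-gingerol and 33.7, 87.2 and 26.4 CPM with PBS (log2 fold change -1.26, adjusted p = 0.348, and -0.55 with adjusted p = 0.164 without SAH + PBS replicate 2). Il34, made by neurons, had 58.0, 65.6 and 55.6 CPM with 6-gingerol and 44.8, 31.7 and 58.1 CPM with PBS, with overlap (log2 fold change 0.41, adjusted p = 0.405). In SAH + PBS replicate 2, Csf1 was thus at its highest and Il34 at its lowest.

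Aif1, the gene of Iba-1, had 13.2, 12.5 and 13.7 CPM with 6-gingerol and 17.0, 17.9 and 16.8 CPM with PBS. The rats of each group lay close together, and SAH + PBS replicate 2 did not stand apart from its group. Treated rats averaged 13.1 ± 0.595 CPM and untreated rats 17.2 ± 0.577 CPM (SD, n = 3 each), and the log2 fold change was -0.39 (standard error 0.12, 95% interval -0.69 to -0.098, adjusted p = 0.347, exact permutation p = 0.1). Without SAH + PBS replicate 2 it was -0.37 (standard error 0.11, 95% interval -0.64 to -0.093, adjusted p = 0.215). Of the 8 markers Aif1 had the smallest unadjusted p (0.0168) with all rats kept. Aif1 (ENSRNOG00000000853) spans 5161333 to 5166448 on the minus strand of chromosome 20 in Rnor_6.0.

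**Figure D2:**
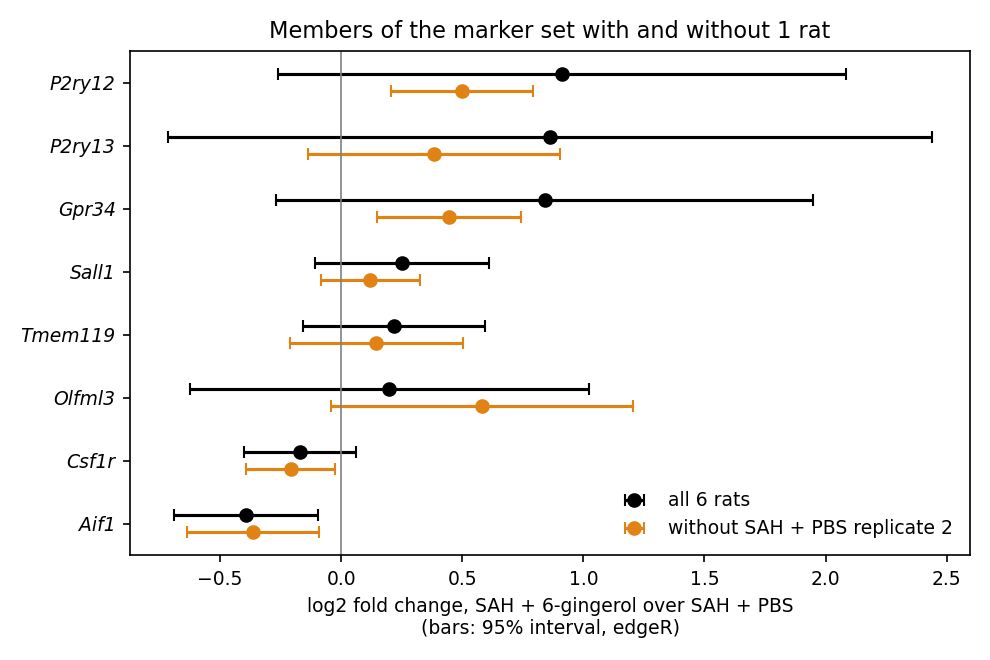
Log2 fold changes of the 8 markers, SAH + 6-gingerol over SAH + PBS, with 95% intervals from edgeR, for all 6 rats (black) and without SAH + PBS replicate 2 (orange). The intervals of P2ry12, P2ry13 and Gpr34 shrink and their values move toward 0 without that rat, to 0.50, 0.38 and 0.44. The values of Csf1r and Aif1 move little, from -0.17 to -0.21 and from -0.39 to -0.37. The upper end of the Csf1r interval goes from 0.06 to -0.026.

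Without SAH + PBS replicate 2, 0 of the 8 passed an adjusted p under 0.05 in edgeR, where 0.524% of all genes did. P2ry12 and Gpr34 were then on the higher side at an unadjusted p under 0.05, as were 8.02% of all genes, and Csf1r and Aif1 on the lower side, as were 7.53%. The coefficients of variation of P2ry12, P2ry13 and Gpr34 were 7.10%, 17.7% and 6.09% with 6-gingerol and 57.4%, 69.0% and 54.9% with PBS. The wide spread of these receptors with PBS came from SAH + PBS replicate 2, since it was 2.38%, 7.88% and 1.89% over the remaining 2 untreated rats. A spread over 2 rats is too imprecise to be set against that of the treated rats. Aif1, Csf1r and Tmem119 varied by 4.54%, 4.70% and 14.7% with 6-gingerol and by 3.35%, 5.72% and 9.19% with PBS (0.666%, 3.93% and 2.95% without that rat).

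Levels of the markers were compared per length by FPKM, since CPM grows with the length of a gene. Csf1r was the highest in all 6 rats, at 29.4, 29.0 and 26.7 FPKM with 6-gingerol and 36.4, 33.7 and 33.7 FPKM with PBS, which was 31.9% to 34.2% of the summed FPKM of the 8 markers in the treated rats and 38.7% to 47.1% in the untreated ones (38.7% and 41.1% without replicate 2). P2ry12 was the next in each treated rat, at 14.2, 14.1 and 12.4 FPKM. It was number 3 in SAH + PBS replicates 1 and 3, at 10.5 and 9.96 FPKM, and number 6 in replicate 2, at 2.73 FPKM. Aif1 had 7.03, 6.69 and 7.24 FPKM with 6-gingerol, number 5 in each, and 9.77, 10.7 and 9.48 FPKM with PBS, where it was number 4, 2 and 4. Sall1, Olfml3 and P2ry13 were between 3.65 and 6.82 FPKM in the treated rats and between 0.536 and 6.66 FPKM in the untreated ones. Tmem119 (9.37 to 12.3 FPKM) and Gpr34 (10.3 to 11.8 FPKM) changed places among the treated rats and did not differ beyond their spread. Aif1 and Sall1 kept their order there, though their ranges overlapped (6.69 to 7.24 FPKM and 6.63 to 6.82 FPKM).

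**Figure D3:**
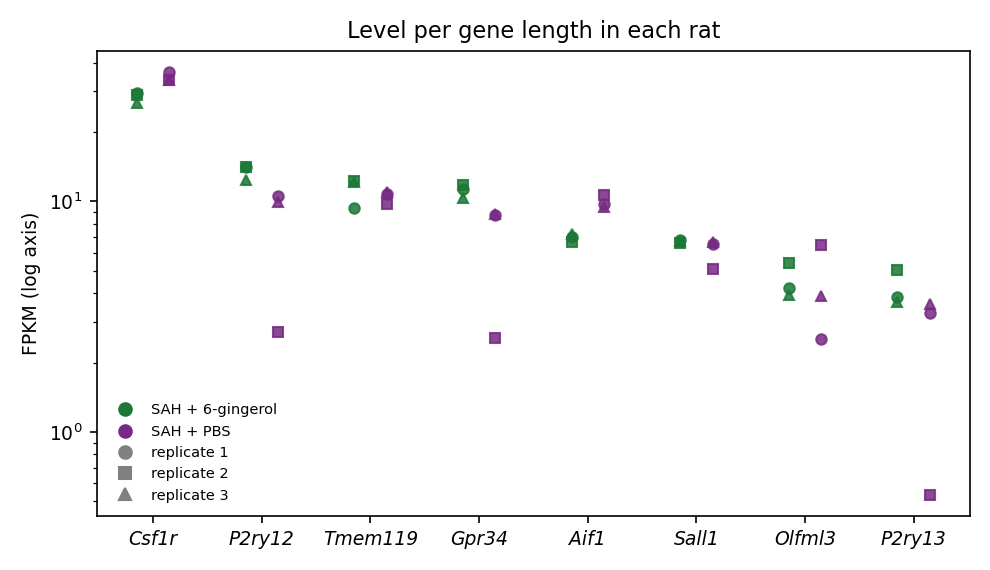
FPKM of each marker in each rat on a log axis, ordered by the level in the treated group, with SAH + 6-gingerol rats (green) left of SAH + PBS rats (purple) and symbols for the replicate number. Csf1r is the highest in every rat, and SAH + PBS replicate 2 (purple squares) is lowest for P2ry12, Gpr34 and P2ry13, at 2.73, 2.56 and 0.536 FPKM.

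Ratios within a rat do not depend on the scaling between libraries. Gpr34 over P2ry12 in CPM was 0.826, 0.866 and 0.867 with 6-gingerol and 0.860, 0.973 and 0.914 with PBS, so these receptors kept nearly the same proportion although each varied more than 5-fold between rats. Aif1 over P2ry12 was 0.712, 0.680 and 0.841 with 6-gingerol and 1.33, 5.63 and 1.37 with PBS, without overlap, and replicate 2 was 4.17 times the mean of the remaining untreated rats. Tmem119 over P2ry12 was 1.14, 1.50 and 1.70 with 6-gingerol and 1.77, 6.19 and 1.91 with PBS, and the difference between the groups was small apart from that rat. Csf1r over P2ry12 lay between 6.52 and 6.86 with 6-gingerol and at 11.0, 39.3 and 10.8 with PBS. That the groups do not overlap in the ratios of Aif1 and Csf1r to P2ry12 follows from the values of these genes themselves. P2ry13 over P2ry12 overlapped, at 0.271, 0.358 and 0.295 with 6-gingerol and 0.311, 0.196 and 0.359 with PBS, and so did Sall1 over Tmem119, at 1.75, 1.29 and 1.32 with 6-gingerol and 1.46, 1.26 and 1.45 with PBS.

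**Figure D4:**
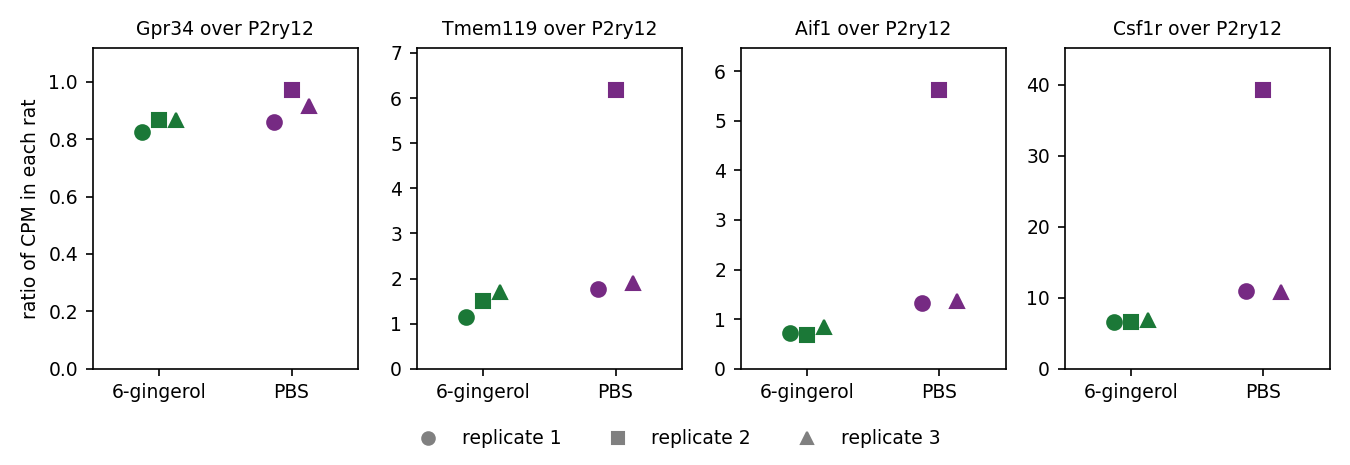
Ratio of the CPM of Gpr34, Tmem119, Aif1 and Csf1r to that of P2ry12 within each rat, with SAH + 6-gingerol rats at the left and SAH + PBS rats at the right, on axes that start at 0. Gpr34 over P2ry12 stays between 0.826 and 0.973 in all rats, whereas Aif1 over P2ry12 is 0.680 to 0.841 in treated and 1.33 to 5.63 in untreated rats.

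In SAH + PBS replicate 2, P2ry12, Gpr34 and P2ry13 were at 0.254, 0.278 and 0.149 times the average of the remaining untreated rats, 3 of 8 markers at under 0.5 times that average, where 10.1% of all genes tested were. Sall1 was at 0.737, Tmem119 at 0.853, Csf1r at 0.917, Aif1 at 1.06 and Olfml3 at 1.91 times it. The markers of microglia thus parted within this rat, with the nucleotide and lipid receptors low and the others within 2-fold of their group. As a single rat, it has no replicate check. Genes of reactive microglia were high there, with 12 of the 14 measured at over 2 times the other untreated rats, where 11.7% of all genes tested were, among them Spp1, a secreted matrix protein (78.4 times), and Ccl3, a chemokine (68.6 times). Neuron markers were low, with a median of 0.562 times, from 0.301 for the kinase Camk2a to 1.10 for Gad1, and their sum was 6825 to 7510 CPM with 6-gingerol and 5309 and 5342 CPM in the remaining SAH + PBS rats, against 2862 CPM there. The part of the neuron content in the marker values was not tested.

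**Figure D5:**
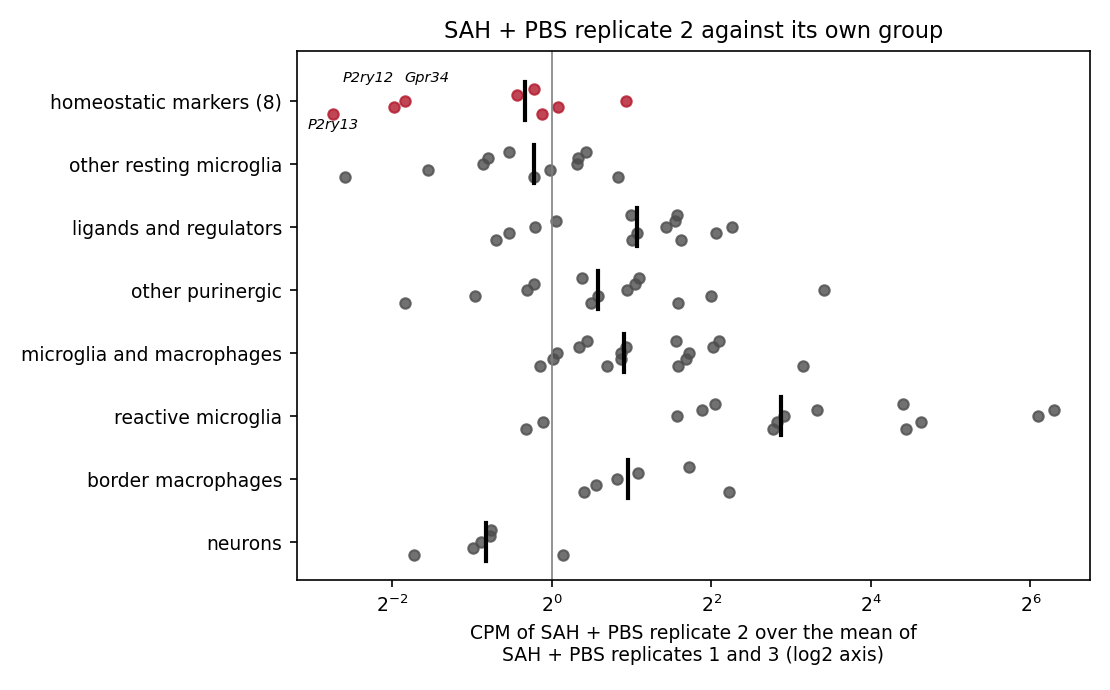
CPM of SAH + PBS replicate 2 over the mean of SAH + PBS replicates 1 and 3, on a log2 axis, for each gene of the 8 markers and of 7 other lists, with the list median as a black line. Ms4a7, a border macrophage gene at 0 in both other untreated rats, has no ratio and is left out. P2ry13, P2ry12 and Gpr34 lie at 0.149, 0.254 and 0.278, while the median of the reactive microglia genes is 7.30.

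Of 13 other genes of resting microglia, 11 were measured, of which 8 had a positive and 3 a negative log2 fold change (median 0.18, and 0.11 without SAH + PBS replicate 2) and none passed the adjustment in edgeR with or without that rat. Slco2b1, an organic anion carrier, had 44.7, 43.7 and 43.1 CPM with 6-gingerol and 36.1, 35.7 and 36.5 CPM with PBS (log2 fold change 0.28, adjusted p = 0.347). Selplg, a selectin ligand, had 24.9, 26.5 and 26.0 CPM with 6-gingerol against 18.3, 10.5 and 20.1 CPM with PBS (0.66, adjusted p = 0.349). Slc2a5, a fructose carrier, was the other way, at 6.41, 5.86 and 5.63 CPM with 6-gingerol against 8.22, 5.92 and 12.4 CPM with PBS (-0.57, adjusted p = 0.394). Ltc4s and Crybb1 were, like P2ry12, at 0.165 and 0.342 times the other untreated rats in SAH + PBS replicate 2, though at low levels of 0.479 and 0.334 CPM. Cx3cr1, the fractalkine receptor of microglia, was not low in that rat, with 22.7, 25.2 and 22.9 CPM with 6-gingerol and 24.96, 29.4 and 21.8 CPM with PBS (-0.10, adjusted p = 0.722).

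The ligands, receptors and transcription factors on which microglia depend gave 3 positive and 10 negative log2 fold changes of 13, with a median of -0.79 that was -0.085 without SAH + PBS replicate 2, and none passed the adjustment. Irf8, a transcription factor of microglia and monocytes, had 10.7, 9.01 and 8.09 CPM with 6-gingerol and 22.4, 38.3 and 16.2 CPM with PBS (log2 fold change -1.47, adjusted p = 0.334). Spi1, the gene of PU.1, had 3.16, 6.13 and 3.89 CPM with 6-gingerol against 9.65, 26.3 and 7.47 CPM with PBS (-1.72, adjusted p = 0.347, and -0.96 without SAH + PBS replicate 2). Cx3cl1, the neuronal ligand of Cx3cr1, had 653, 678 and 764 CPM with 6-gingerol against 447, 321 and 486 CPM with PBS (0.74, adjusted p = 0.338). Tgfb1, a growth factor that keeps microglia in the resting state in mice, was at 76.3 CPM in SAH + PBS replicate 2 and between 11.6 and 16.6 CPM in the other rats. Of the 13 genes, 2 on the higher and 6 on the lower side had no overlap between the groups, where 13.8% and 13.4% of all genes tested did. Irf8, Spi1 and Cx3cl1, named for their small p, were among them.

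Of 17 genes that microglia share with other macrophages 16 were measured, and all 16 had a log2 fold change under 0, as did 53.1% of all genes tested. The groups did not overlap in 11, all lower with 6-gingerol, where 13.4% of all genes tested were. They overlapped in 5, among them Trem2, a lipid receptor of microglia (-0.17, adjusted p = 0.705). The median was -1.35 (-0.68 without SAH + PBS replicate 2), and their summed level was 315.0 to 327.2 CPM with 6-gingerol and 516.5 to 921.7 CPM with PBS. None passed the adjustment with all rats, and C1qa, C1qb and C1qc, chains of complement C1q, did so when SAH + PBS replicate 2 was left out (adjusted p 0.0109 to 0.0352). Of 15 genes of reactive microglia 14 were measured, 13 of them with a negative value (median -3.44, and -1.04 without that rat). Gpnmb, Lgals3 and Cd63 were lower past the adjustment without that rat (adjusted p from 0.0167 to 0.0465). Over all genes tested without that rat, 62 of 17362 were lower past the adjustment. The summed CPM of the 8 markers was 232.0 to 246.4 with 6-gingerol and 204.7 to 244.6 with PBS, with overlap.

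Other cells could also hold some of the markers, since monocytes and border macrophages make Csf1r and Aif1 and platelets make P2ry12. The 7 measured border macrophage markers of 8 (Mrc1, Cd163, Lyve1, Pf4, Ms4a7, Folr2 and Stab1) had negative log2 fold changes (median -0.77), of which Pf4 and Ms4a7 were positive without SAH + PBS replicate 2 (median -0.13). They had a summed level of 32.9 to 41.4 CPM with 6-gingerol and 33.6 to 79.4 CPM with PBS. Of 6 monocyte markers 3 were measured, with sums of 9.71 to 18.6 CPM with 6-gingerol and 18.5 to 169.5 CPM with PBS, where Cd14 made up 132.4 CPM of the highest. The 3 measured neutrophil markers of 8 summed to 3.66 to 4.43 CPM with 6-gingerol and 5.16 to 43.1 CPM with PBS. Of those that did not pass the filter, Mmp8 and Cxcr2 had 295 and 148 counts in SAH + PBS replicate 2 and at most 12 counts in any other rat. Camp, Ngp and Elane had at most 20 counts in any rat. Ngp went the other way, with 0, 20 and 12 counts with 6-gingerol and 0, 9 and 0 with PBS. The 3 measured platelet markers of 6 stayed low, at 2.32 to 3.17 CPM with 6-gingerol and 2.20 to 3.14 CPM with PBS. The 6 measured choroid plexus markers of 7 all had negative log2 fold changes. They summed to 12.9 to 16.2 CPM with 6-gingerol and 36.8 to 1152 CPM with PBS, lowest in SAH + PBS replicate 2. Aqp1 made up 32.1 of the 36.8 CPM there. In that rat 5 of the 6 were at under 0.5 times the other untreated rats, where 10.1% of all genes tested were. Ttr had 0.610 CPM there, against 1048 and 300 CPM in the remaining untreated rats and 0.435 to 3.51 CPM with 6-gingerol. Without that rat 3 of the 6 passed the adjustment, as did 0.524% of all genes tested. Astrocyte and oligodendrocyte markers (5 of 5 positive in each, median 0.29 and 0.55) and the 3 measured endothelial markers of 5 (1 positive, median -0.66, and 2 positive, median 0.0071, without SAH + PBS replicate 2) had no gene past the adjustment with all rats. Cldn5, an endothelial marker that did not pass the filter, was listed with 922 counts in SAH + PBS replicate 2 and 0 in every other rat. The part of these cells in the marker values was not tested.

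Ssbp2, Lrtm2, Ntn3 and Cmas were among the 5 genes whose log2 CPM was most like the mean profile of the 8 markers over the 6 libraries, of 14791 other genes that averaged 1 CPM or more, with Pearson's r from 0.9989 to 0.9996 and Spearman's rho from 0.9429 to 1. The r of these 4 genes was 0.9912 to 0.9967 over the 5 libraries without SAH + PBS replicate 2, a rat in which they were at 0.326 to 0.675 times the other untreated rats. Ssbp2, the closest, had 54.2, 57.8 and 54.4 CPM with 6-gingerol and 49.3, 34.1 and 51.9 CPM with PBS. The libraries share a rat that stands apart, the genes were picked for their likeness, and r is given as a description.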

How the data were processed

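RNA from the basal temporal lobe was sequenced with 1 library per rat. The sample titles give the group and the replicate number. The table columns headed Control hold the SAH + 6-gingerol libraries and those headed SAH the SAH + PBS libraries. The authors deposited raw counts and, separately, FPKM of 22396 genes. The submitters' processing notes list StringTie 1.3.3b, HISAT2 2.1.0, limma 3.32.10 and the build Rnor_6.0 without saying what each did, while STAR and DESeq2 are named in the paper's methods. For the read counter and strand, the setting is not given in the sources used here. FPKM followed from counts and a fixed length per gene to within 0.0128%, over 13995 genes.

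Counts were compared in edgeR 4.0.16 under R 4.3.3, over the 17096 genes passing filterByExpr (minimum count 10, minimum total 15), with TMM factors, glmQLFit, glmQLFTest and Benjamini-Hochberg adjustment. The standard error was taken as |log2 fold change| over the root of F. Each member was also compared with the 2-sided exact permutation test of log2 CPM. DESeq2 1.42.0, limma 3.58.1, other scalings and filters, each rat left out and a replicate block were the alternatives. The test was checked on simulated data. The smallest chi-square per degree of freedom between any 2 libraries was 37.9, so none was counted as a repeat. The labels do not say that the replicates share a litter or a day.

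The 8 members and all lists were chosen with earlier results of these data known. In other lists, up to 3 genes of smallest p averaging 1 CPM or more were named. Csf1, Il34, Tgfb1, Cx3cr1, Camk2a, Gad1, Ltc4s, Crybb1, Trem2, Ccl3, Spp1, Cd14, Mmp8, Cxcr2 and Entpd1 were named outside that rule, after their values were seen. Adora3, Camp, Elane and Ngp were also named outside it. So were Pf4, Ms4a7 and Cldn5, after their values were seen. Where a symbol had several rows, the row with the highest total was used. Of the 5 genes most like the markers, 1 is not reported here.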

Additional observations from a re-analysis of the deposited data

How the results depend on the processing

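None of the 8 markers passed an adjusted p under 0.05 in any of 17 alternatives (16 for P2ry13, which the filter of 1 CPM in every rat removed), with adjusted p from 0.0955 (Aif1) to 0.966 (Olfml3). All kept the sign of their log2 fold change apart from Olfml3, which was -0.062 without SAH + PBS replicate 1 and up to 0.58 with another rat left out, and 0.75 with sample quality weights. The median of the 8 was 0.12 to 0.35, and the number without overlap 5 to 7. The share of all genes without overlap, 13.8% higher and 13.4% lower, was taken for the chosen test only. The count of 7 came with 1 rat left out, where any gene separates more easily, so it is not a result about the markers. Scaling by library totals shifted the median of all genes by -0.12, and the markers lay 0.27 above it, against 0.26 with TMM. The number at an unadjusted p under 0.05 was 1 in the chosen test, 5 with limma-voom and sample quality weights, 2 with library totals, 2 with log2(FPKM + 1), with or without a filter, 2 with log2(FPKM + 0.1), and 0 to 4 when each rat was left out (0 without SAH + 6-gingerol replicate 1 or 2, and 4 without SAH + PBS replicate 2). The share of all genes was taken for the chosen test (8.71% lower, 5.22% higher) and without SAH + PBS replicate 2 (7.53% and 8.02%). The counts of the other alternatives have no such share beside them and are not a result about the markers.

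With the replicate number as a block, 0 markers were at an unadjusted p under 0.05. Deviations of same-numbered rats correlated at -0.0415, 0.00647 and 0.00913, and not every rat correlated best with its own number, so the numbers were not taken to pair the rats. Over all genes 3 passed the adjustment in edgeR, against 663 in DESeq2, 147 with quality weights, 5 with log2(FPKM + 0.1), 91 and 15 without SAH + PBS replicate 2 and 3, and 0 without SAH + 6-gingerol replicate 2 or 3, with the block or with 1 CPM in every rat. With 3 rats a group no exact p can go under 0.1.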

Other observations

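Besides P2ry12 and P2ry13, 13 genes of nucleotide and adenosine handling were measured, of which 3 had a positive and 10 a negative log2 fold change (median -0.24, and -0.15 without SAH + PBS replicate 2), none past the adjustment in edgeR. P2ry6, the UDP receptor linked to phagocytosis by microglia, had 2.64, 3.54 and 2.54 CPM with 6-gingerol and 5.33, 10.03 and 4.45 CPM with PBS (log2 fold change -1.18, adjusted p = 0.347). Nt5e, the ectoenzyme CD73 that makes adenosine, had 9.52, 10.3 and 8.49 CPM with 6-gingerol against 10.5, 47.8 and 13.4 CPM with PBS (-1.34, adjusted p = 0.364, and -0.34 without SAH + PBS replicate 2), and P2ry6 and Nt5e were both at their highest in SAH + PBS replicate 2, where P2ry12 was at its lowest. Adora2a, an adenosine receptor abundant in striatal neurons, had 32.6, 7.56 and 21.8 CPM with 6-gingerol against 7.08, 11.3 and 4.65 CPM with PBS, with overlap (1.43, adjusted p = 0.355). Adora3, another adenosine receptor, was like P2ry12 lowest in SAH + PBS replicate 2. It had 1.41, 1.86 and 1.89 CPM with 6-gingerol against 1.21, 0.363 and 1.39 CPM with PBS (0.80, adjusted p = 0.456). In that rat 5 of the 13 genes were at over 2 times the other untreated rats and 1 at under 0.5 times. Over all genes tested these shares were 11.7% and 10.1%. Entpd1, the ectoenzyme CD39 of microglia that breaks ATP and ADP down, was listed at 0 in SAH + 6-gingerol replicate 2 and between 18.0 and 55.4 CPM in the other rats, and it is given as listed, without a fold.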
